A study of Mus musculus with 12 samples.

Results

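Expression of the mitochondrial protein import genes was followed across the cell body and dendritic layers of 2 fields of the mouse hippocampus. The genes were chosen by symbol: those starting with Timm, Tomm, Samm or Pam16, and Dnajc19, without pseudogenes, where the array had a feature carrying that symbol alone. Where a gene had several such features, the feature with the highest mean was taken. The rule gave 25 genes of the 30142 tested. It left out 4 others, Dnajc19, Tomm5, Tomm6 and Timm10b, whose features carried the symbol of a second gene as well. The levels were log2 expression values on Affymetrix whole-transcriptome arrays, on which 1 unit stands for a 2-fold change. The groups were the dendritic layer (stratum radiatum) and the cell body layer (stratum pyramidale) of CA2, and the same layers of CA1, with 3 arrays each. All tissue came from 3 male mice of 6 to 8 weeks, of the strain labelled Amigo2-GFP C57BL/6J. Every group therefore carried the same reporter, and no mouse without it was used here. The layers were cut out by laser capture from frozen sections, and the sections of about 20 caps were pooled for a piece. A dendritic-layer sample also holds axons, interneurons, glia and vessels.

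Nearly all mitochondrial proteins are encoded in the nucleus, made in the cytosol and brought in through translocases. The TOM complex is the entry gate of the outer membrane, with receptors (Tomm20, Tomm22, Tomm70a) and a channel (Tomm40). The TIM23 complex and its motor take proteins with a cleavable presequence across the inner membrane, while small TIM chaperones carry hydrophobic proteins through the intermembrane space to the TIM22 complex, which inserts them. In neurons, mitochondria lie along dendrites and axons far from the nucleus, and import has to serve them there.

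By their markers the layers mostly matched their labels. All 8 astrocyte markers and all 7 microglia markers rose in the dendritic layer of both regions, with medians of 1.98 and 2.70 in CA1 and 2.00 and 2.29 in CA2. Of 4 measured pyramidal neuron markers, 3 fell in CA1 and 4 in CA2. All 7 CA2 markers were higher in CA2 than in CA1 cell bodies, and 4 of 5 CA1 markers were lower. Between dendrites 3 of 7 CA2 markers were higher in CA2 and 3 of 5 CA1 markers were lower. Within CA1, 3 of 7 CA2 markers rose in the dendritic layer, among them Pcp4 by 2.21, and 1 fell. Of the 5 CA1 markers 3 fell there and 1 rose. The mean of 17 oocyte transcripts stood 1.31 to 1.39 above the median of the 12 arrays on 3 CA2 arrays, dendrite 2 and 3 and cell body 1, and at most 0.06 above it on the other arrays. Values without these 3 arrays, which leave 1 CA2 dendrite array, are given beside the named CA2 results whose call they change. That lone array is then assumed to vary like the other groups. All CA1 arrays share a run number and all CA2 arrays another, and for any CA2 against CA1 value the region and the run cannot be told apart. The layers of a region shared their run.

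The features of 3 members need care. For Timm23, Timm8a1 and Pam16, the brighter of 2 features has an identifier that places it on chromosome 10, while RefSeq has these genes on chromosomes 14, X and 16. Across the 22625 features that could be compared, 99.6% had an identifier on the chromosome of their gene. For the results of these 3 genes named below, differences on the feature of their own chromosome are given as well. Signal of a gene and of a copy of it elsewhere cannot be separated on the array. All 25 members had a mean above the median of all features. Timm8a2, a paralog of Timm8a1, was the dimmest, at 5.97 to 6.33 over the 12 arrays, near the array medians of 5.68 to 5.88.

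The first question was how the RNAs of the import machinery are distributed between the layers. Most members that differed had less signal in the dendritic layer. In CA1, 14 members fell, 2 rose and 9 did not pass (limma, adjusted p under 0.05 over all 30142 genes). In that comparison 46.9% of all genes passed, 28.3% higher and 18.5% lower. The import genes are not dim, and they were also set beside the 5411 other genes in the middle range of their levels, between 7.91 and 9.77 on the log2 scale. These limits are the lower and upper quartile of the members' means, and the dimmest and brightest members lie outside them. It is this middle range that is meant by their range of levels below. Among the members 56.0% fell and 8.0% rose, and among those other genes 71.6% passed, 23.6% higher and 48.1% lower. In CA2, 13 members fell, 2 rose and 10 did not pass. Of all genes 34.0% passed there, 16.2% higher and 17.8% lower. Among the members 52.0% fell and 8.0% rose, and among the genes in their range of levels 67.2% passed, 24.0% higher and 43.2% lower. The median difference of the members was -0.29 in CA1 and -0.30 in CA2. It was -0.20 and -0.16 for the genes in that range, and 0.12 and -0.03 for all genes. The share of members that fell was thus near that of other genes in this middle range in both regions, and above that of all genes. Of the members that fell, 11 did so in both regions, which is 78.6% of the CA1 list and 84.6% of the CA2 list. Over the genes in their range of levels the shares were 73.7% and 82.0%, and over all genes 65.9% and 68.6%. Beside these differences most pyramidal neuron markers fell, and the glial and endothelial markers rose. Interneuron markers mostly rose as well, 6 of 7 in CA1 with 1 lower, and 5 of 7 in CA2 with 0 lower. The part of these cell types in the differences was not tested. In such samples fewer cells of a type and less RNA per cell cannot be told apart. Without the 3 arrays with oocyte transcripts, fewer members passed in CA2, whose dendritic layer then has 1 array. Their median difference in CA2 was -0.255 in that fit. The share of all genes called in it is not given here, so the loss of calls cannot be set beside that of other genes.

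**Figure D1:**
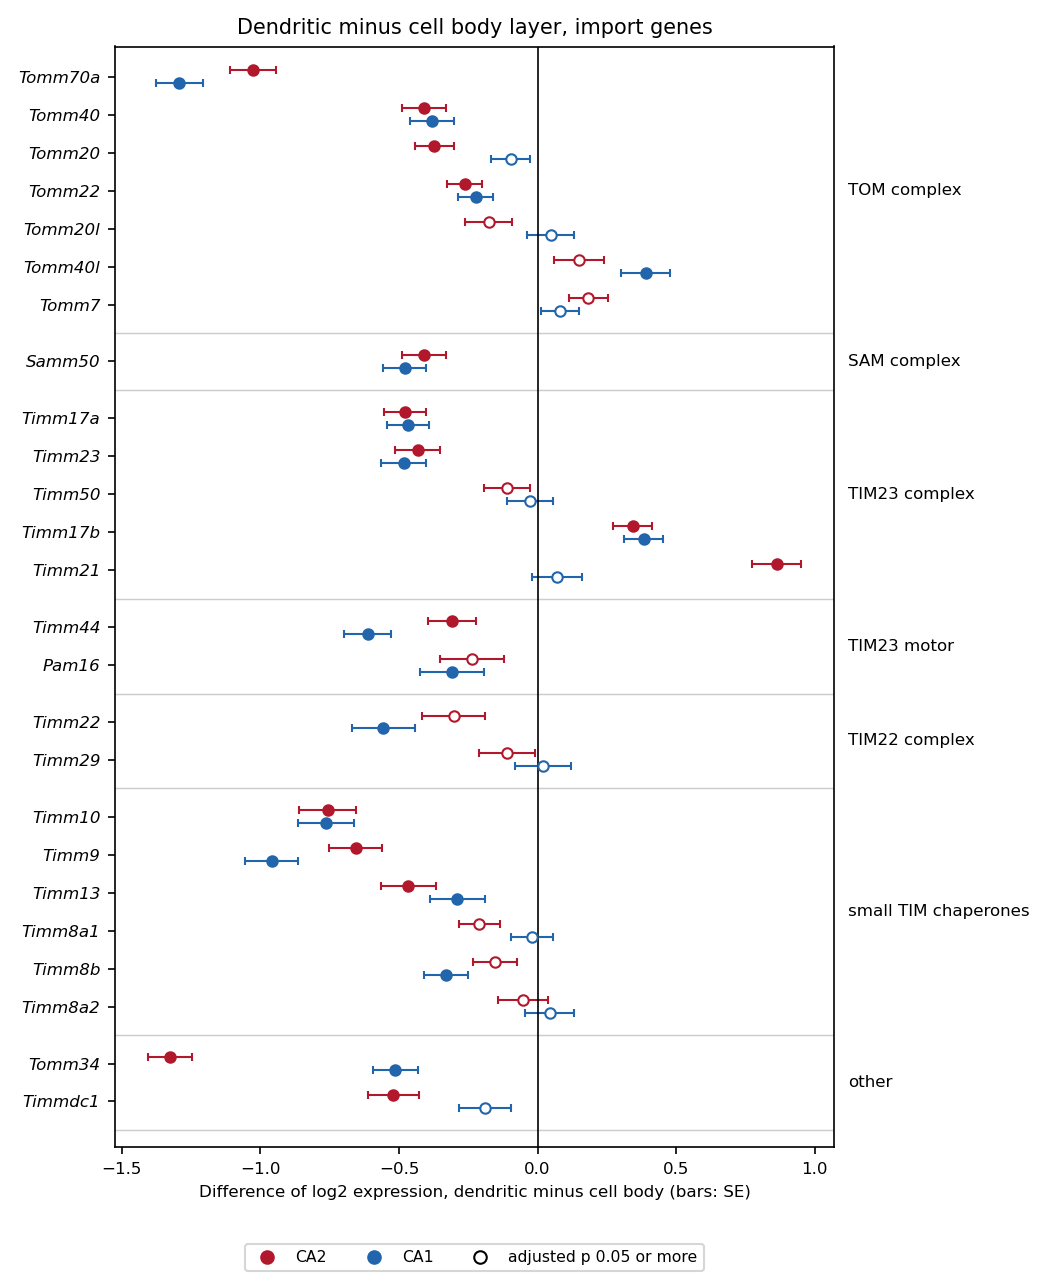
Difference of log2 expression between the dendritic and the cell body layer for the 25 import genes, grouped by complex, in CA2 (red) and CA1 (blue). Bars are standard errors from the limma fit, and open circles did not pass an adjusted p of 0.05. Tomm70a, Timm9, Timm10 and Tomm34 lie furthest to the left, and Timm17b and Timm21 stand to the right of 0 within the TIM23 complex.

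At the outer membrane, the receptor Tomm70a, which takes up carrier proteins and docks cytosolic chaperones, had the largest difference of the members in CA1. It read 8.98, 8.99 and 9.22 in the CA1 dendritic layer, against 10.32, 10.40 and 10.35 in the CA1 cell body layer. The CA2 values of Tomm70a were 9.31, 9.40 and 9.21 in the dendritic layer, against 10.39, 10.30 and 10.31 in the cell body layer. The layers did not overlap in either region. Tomm70a fell by 1.29 in CA1 (SE 0.08, limma adjusted p = 1.24e-06), which is 2.45-fold lower. In CA2 it fell by 1.03 (SE 0.08, limma adjusted p = 5.39e-06), and by 0.91 without the 3 arrays with oocyte transcripts (limma adjusted p = 0.00577).

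The other TOM subunits moved less. The channel gene Tomm40 read 7.90, 8.05 and 7.95 in the CA1 dendritic layer, against 8.41, 8.22 and 8.41 in the CA1 cell body layer. In CA2 Tomm40 read 7.74, 7.92 and 7.89 in the dendritic layer, against 8.26, 8.23 and 8.29 in the cell body layer. Every dendritic value lay below every cell body value of its region, and the differences were -0.38 and -0.41 (limma adjusted p = 0.00294 and 0.00211). The CA2 call was lost without the arrays with oocyte transcripts, at a difference of -0.52 (limma adjusted p = 0.0629). Tomm22, the central receptor of the complex, fell by 0.22 in CA1 and by 0.26 in CA2 (limma adjusted p = 0.0158 and 0.00807). Its CA1 call was lost without CA1 cell body replicate 3 (limma adjusted p = 0.0726), without any replicate number (limma adjusted p = 0.0598, 0.0851 and 0.119) and after quantile normalization (limma adjusted p = 0.507). Its CA2 call was lost without replicate 1 or 2 (limma adjusted p = 0.0834 and 0.11) and without the oocyte-transcript arrays (limma adjusted p = 0.214). The small subunit Tomm7 differed by 0.08 in CA1 (95% interval -0.07 to 0.23) and by 0.18 in CA2 (95% interval 0.03 to 0.34, limma adjusted p = 0.067), and did not pass in either. Samm50, which builds beta-barrel proteins into the outer membrane, fell by 0.48 in CA1 and by 0.41 in CA2 (limma adjusted p = 0.000598 and 0.00191).

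The presequence receptor Tomm20 read 9.97, 10.17 and 10.13 in the CA1 dendritic layer, against 10.16, 10.22 and 10.18 in the CA1 cell body layer. These groups overlapped, and the difference of -0.10 did not pass (95% interval -0.25 to 0.06). For Tomm20 in CA2 the values were 9.61, 9.70 and 9.48 in the dendritic layer, against 9.96, 9.98 and 9.97 in the cell body layer, which did not overlap. Tomm20 fell by 0.37 in CA2 (SE 0.07, limma adjusted p = 0.00178), and the call was lost without the arrays with oocyte transcripts (-0.26, limma adjusted p = 0.239). The difference between its layer differences did not pass (-0.28, limma adjusted p = 0.0952), but it passed after quantile normalization (-0.39, limma adjusted p = 0.0214). Its paralog Tomm20l read 6.87, 6.72 and 6.68 in the CA1 dendritic layer, against 6.65, 6.73 and 6.75 in the CA1 cell body layer. Tomm20l in CA2 read 6.61, 6.58 and 6.72 in the dendritic layer, against 6.82, 6.93 and 6.69 in the cell body layer. Both pairs of groups overlapped and Tomm20l passed in neither region.

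Among the chaperones of the intermembrane space, Timm9 and Timm10, which form a complex that carries hydrophobic precursors, were both lower in the dendritic layer. Timm9 read 7.42, 7.16 and 7.49 in the CA1 dendritic layer, against 8.43, 8.23 and 8.29 in the CA1 cell body layer. The CA2 values of Timm9 were 7.57, 7.26 and 7.40 in the dendritic layer, against 7.96, 8.11 and 8.13 in the cell body layer. Timm9 fell by 0.96 in CA1 (SE 0.09, limma adjusted p = 1.92e-05) and by 0.66 in CA2 (SE 0.09, limma adjusted p = 0.000288), with no overlap. The CA2 call held without the arrays with oocyte transcripts (-0.68, limma adjusted p = 0.0215). Timm10 read 8.70, 9.16 and 9.15 in the CA1 dendritic layer, against 9.81, 9.79 and 9.70 in the CA1 cell body layer. In CA2 Timm10 read 8.79, 8.81 and 8.75 in the dendritic layer, against 9.50, 9.60 and 9.52 in the cell body layer. The layers were again apart, by -0.76 in each region (limma adjusted p = 0.00016 in CA1 and 0.00019 in CA2). Without the oocyte-transcript arrays the CA2 difference was -0.58 and did not pass (limma adjusted p = 0.108).

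Timm13, which works with Timm8 proteins, fell by 0.29 in CA1 and by 0.47 in CA2 (limma adjusted p = 0.0356 and 0.00383). The CA1 call of Timm13 rests on single arrays. Without CA1 dendrite replicate 2 its adjusted p in limma was 0.142, and 6 of the 12 single-array omissions ended the call, as did quantile normalization (limma adjusted p = 0.351). Its CA2 call was lost without replicate 2 (limma adjusted p = 0.0531). Timm8b read 9.86, 9.95 and 10.09 in the CA1 dendritic layer, against 10.23, 10.42 and 10.24 in the CA1 cell body layer. It fell by 0.33 there (SE 0.08, limma adjusted p = 0.00685). The call was lost after quantile normalization (-0.17, limma adjusted p = 0.0865) and without replicate 1 or 2 (limma adjusted p = 0.0501 and 0.101). For Timm8b in CA2 the values were 9.91, 10.00 and 9.97 in the dendritic layer, against 10.18, 10.10 and 10.06 in the cell body layer, and the difference of -0.15 did not pass. Timm8a1, whose human counterpart is mutated in a deafness-dystonia syndrome, read 8.55, 8.53 and 8.73 in the CA1 dendritic layer, against 8.66, 8.66 and 8.55 in the CA1 cell body layer, on its brighter feature. Timm8a1 in CA2 averaged 9.08 ± 0.08 in the dendritic layer, with a highest value of 9.15, and 9.29 ± 0.03 in the cell body layer, with a lowest value of 9.25 (SD, n = 3). It passed in neither region, with -0.02 in CA1 and -0.21 in CA2 (95% interval -0.38 to -0.04, limma adjusted p = 0.0526). The CA2 value passed after median centring (-0.25, limma adjusted p = 0.0409). On the feature of its own chromosome, X, Timm8a1 differed by 0.17 in CA1 and by -0.10 in CA2. Neither passed there (limma adjusted p = 0.17 and 0.481). Timm8a2 differed by 0.04 in CA1 and by -0.05 in CA2 and did not pass.

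The carrier translocase gene Timm22 fell by 0.56 in CA1 (SE 0.11, limma adjusted p = 0.00251) and differed by -0.30 in CA2 (SE 0.11, limma adjusted p = 0.0645). Timm29, a subunit of the same complex, differed by 0.02 and -0.11 and passed in neither. In the import motor, the scaffold Timm44 fell by 0.61 in CA1 and by 0.31 in CA2 (limma adjusted p = 0.000218 and 0.0169). Its CA2 call was lost without CA2 dendrite replicate 3 (limma adjusted p = 0.0769) or CA2 cell body replicate 2 (limma adjusted p = 0.0869). Leaving out any replicate number also ended it (limma adjusted p = 0.0859, 0.0624 and 0.0584), as did leaving out the arrays with oocyte transcripts, at a difference of -0.35. Pam16, a regulator of the motor, fell by 0.31 in CA1 (SE 0.12, limma adjusted p = 0.0491). This was barely past the threshold, and on the feature of its own chromosome the difference was -0.14 (limma adjusted p = 0.191). Without the arrays with oocyte transcripts, too, the call was lost (limma adjusted p = 0.071).

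**Figure D2:**
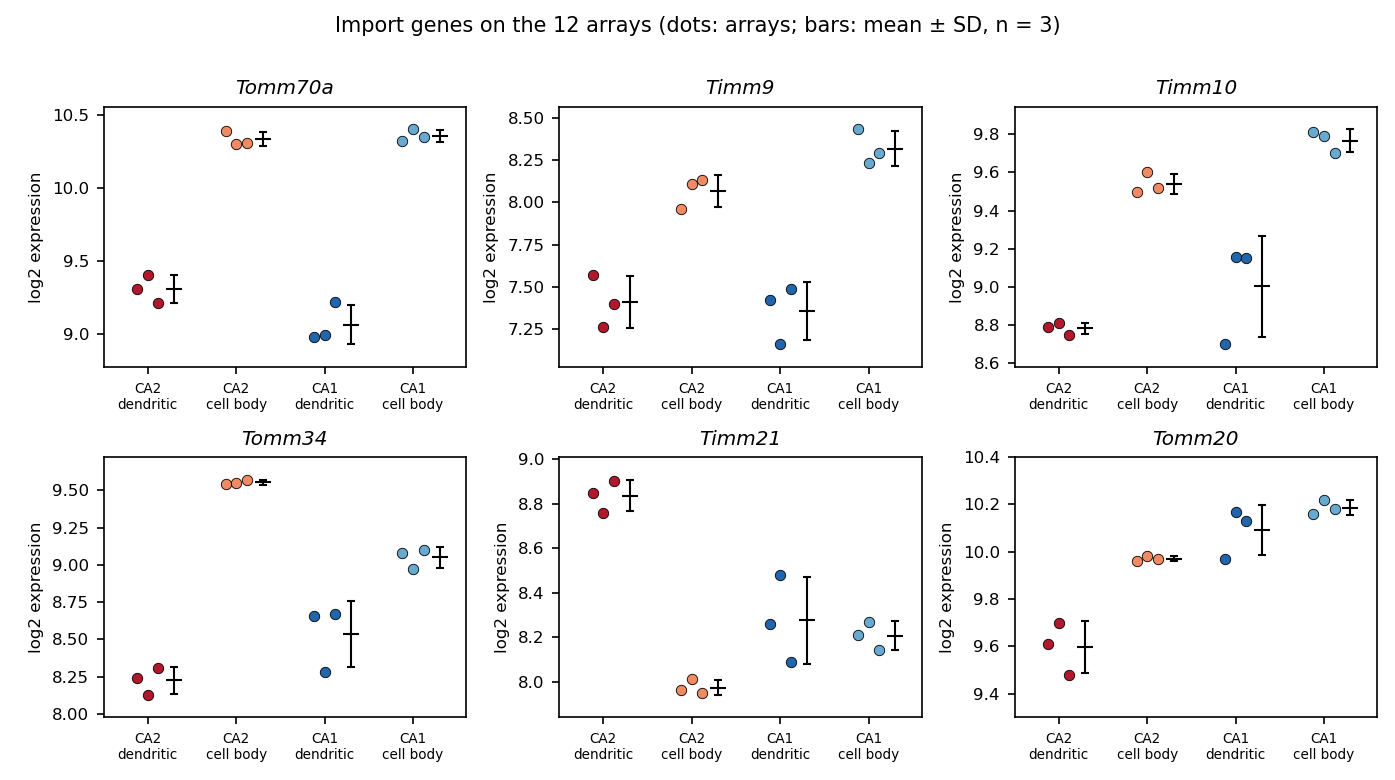
Log2 expression of 6 import genes on each array, with a dot per array and the mean ± SD of 3 arrays beside them. The dendritic groups of Tomm70a, Timm9, Timm10 and Tomm34 lie below the cell body groups of their region, Timm21 is highest in the CA2 dendritic layer, and Tomm20 is lowest there.

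The TIM23 complex held members of both signs. Timm17a and Timm17b encode alternative subunits of the same inner membrane channel. Timm17a read 10.17, 9.96 and 10.18 in the CA1 dendritic layer, against 10.54, 10.58 and 10.59 in the CA1 cell body layer. The CA2 values of Timm17a were 10.53, 10.62 and 10.52 in the dendritic layer, against 11.03, 11.08 and 11.00 in the cell body layer. Timm17a thus fell without overlap, by 0.47 in CA1 and by 0.48 in CA2 (SE 0.08 each, limma adjusted p = 0.000592 and 0.000551). Timm17b read 8.23, 8.17 and 8.29 in the CA1 dendritic layer, against 7.85, 7.72 and 7.97 in the CA1 cell body layer. In CA2 Timm17b read 8.45, 8.59 and 8.58 in the dendritic layer, against 8.16, 8.21 and 8.22 in the cell body layer. Timm17b rose without overlap, by 0.38 in CA1 and by 0.34 in CA2 (SE 0.07 each, limma adjusted p = 0.00136 and 0.0031). The layer differences of both genes were alike in the regions to within -0.25 to 0.23 for Timm17a and -0.26 to 0.18 for Timm17b (95% intervals of CA2 minus CA1). Without the oocyte-transcript arrays, the CA2 differences were -0.54 for Timm17a (limma adjusted p = 0.0516) and 0.23 for Timm17b (limma adjusted p = 0.322), and neither passed.

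Tomm40 and its paralog Tomm40l were a second pair of opposite sign, in CA1. Tomm40l read 8.07, 8.14 and 7.94 in the CA1 dendritic layer, against 7.83, 7.52 and 7.63 in the CA1 cell body layer. It rose by 0.39 (SE 0.09, limma adjusted p = 0.00496), and the call was lost with replicate 2 left out of all groups (limma adjusted p = 0.0886). For Tomm40l in CA2 the values were 8.08, 8.06 and 7.99 in the dendritic layer, against 7.82, 7.90 and 7.96 in the cell body layer, and 0.15 did not pass (limma adjusted p = 0.251). The difference between the regions was not established for Tomm40l (-0.24, limma adjusted p = 0.217).

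**Figure D3:**
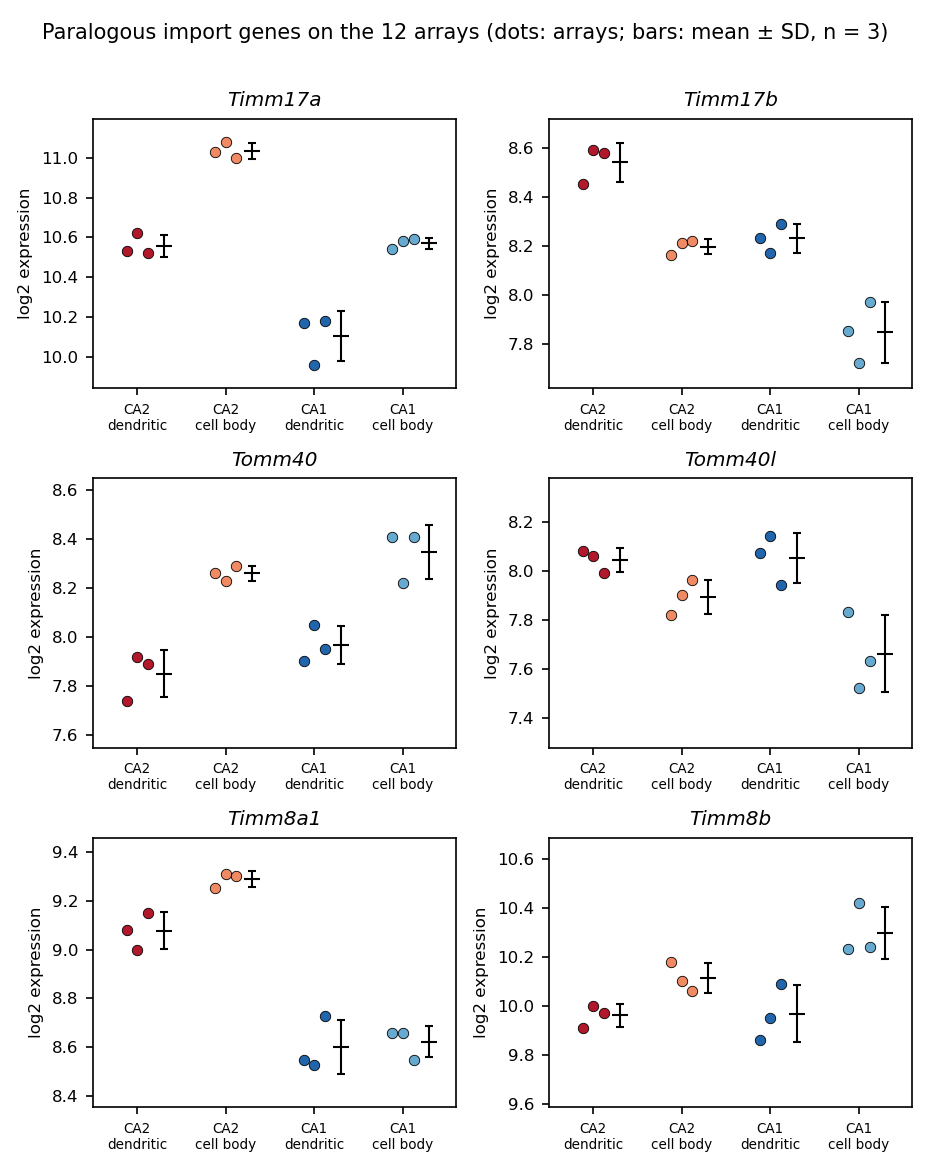
Log2 expression of 3 pairs of paralogous import genes on each array, with a dot per array and the mean ± SD of 3 arrays. The dendritic groups lie below the cell body groups for Timm17a and above them for Timm17b, and Timm8a1 is higher in both CA2 groups than in both CA1 groups on its brighter feature.

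The channel gene Timm23 read 8.79, 8.62 and 8.80 in the CA1 dendritic layer, against 9.23, 9.15 and 9.28 in the CA1 cell body layer. Timm23 in CA2 read 9.12, 9.34 and 9.22 in the dendritic layer, against 9.71, 9.61 and 9.66 in the cell body layer. The layers did not overlap, and Timm23 fell by 0.48 in CA1 and by 0.43 in CA2 (limma adjusted p = 0.00067 and 0.00156). On the feature of its own chromosome it fell by 0.65 in CA1 and by 0.35 in CA2 (limma adjusted p = 0.000464 and 0.0233). Timm50, the receptor that hands presequences to the channel, passed in neither region, with -0.03 in CA1 (95% interval -0.21 to 0.16) and -0.11 in CA2 (95% interval -0.29 to 0.07).

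The promoters of 4 of these genes are shown because their RNAs moved against or with each other: the pair Timm17a and Timm17b, of opposite sign, and Tomm70a and Timm23, which fell in both regions. Each is the 250 bases before the RefSeq gene start in GRCm38.p6, on the strand of the gene, 5′ to 3′. Tomm70a lies on the plus strand at chr16:57121464-57121713, Timm23 on the minus strand at chr14:32201892-32202141, Timm17a on the minus strand at chr1:135313738-135313987 and Timm17b on the plus strand at chrX:7899086-7899335. Capitals mark matches to any of 3 motifs of factors known to act on nuclear genes for mitochondrial proteins: NRF1, GABPA (CCGGAAGTG) and YY1 (AAGATGGCG), which do not overlap here, each searched on both strands.
Tomm70a: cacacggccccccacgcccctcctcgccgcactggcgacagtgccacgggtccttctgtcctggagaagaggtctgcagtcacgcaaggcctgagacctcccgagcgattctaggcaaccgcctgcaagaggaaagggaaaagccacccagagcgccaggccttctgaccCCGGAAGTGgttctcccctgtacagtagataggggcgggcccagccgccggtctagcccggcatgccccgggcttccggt
Timm23: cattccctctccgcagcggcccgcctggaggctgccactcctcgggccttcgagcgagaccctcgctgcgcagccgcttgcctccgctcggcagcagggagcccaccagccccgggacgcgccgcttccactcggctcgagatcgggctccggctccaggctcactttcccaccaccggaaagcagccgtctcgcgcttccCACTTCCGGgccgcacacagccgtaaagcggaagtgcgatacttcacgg
Timm17a: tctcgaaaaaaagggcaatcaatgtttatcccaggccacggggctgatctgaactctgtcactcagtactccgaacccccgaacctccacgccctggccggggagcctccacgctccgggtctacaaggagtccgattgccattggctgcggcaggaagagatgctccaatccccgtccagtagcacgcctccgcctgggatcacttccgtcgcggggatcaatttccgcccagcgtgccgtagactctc
Timm17b: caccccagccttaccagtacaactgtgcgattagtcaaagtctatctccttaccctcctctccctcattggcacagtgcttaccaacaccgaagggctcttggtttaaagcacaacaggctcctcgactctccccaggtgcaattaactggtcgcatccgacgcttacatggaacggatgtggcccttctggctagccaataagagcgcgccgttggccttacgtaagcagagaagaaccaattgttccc
The GABPA letters begin 80 bases before the start in Tomm70a and 49 bases before it in Timm23, where they stand on the other strand. The windows of Timm17a and Timm17b held none of the 3 motifs in these letters. Among the 22 members with a RefSeq window, 5 (22.7%) held the GABPA letters: Timm23, Timm29, Timm8a2, Timmdc1 and Tomm70a. The share was 2.12% of 17492 protein-coding genes and 1.44% of all 32851 windows. Of those 5, Tomm70a and Timm23 fell in both regions, Timmdc1 fell in CA2, and Timm29 and Timm8a2 passed in neither. The NRF1 letters stood in Pam16 and Tomm20 (9.09%, against 5.84% of protein-coding genes and 3.74% of all windows). The YY1 letters stood in 0 of 22, against 0.84% of protein-coding genes and 0.606% of all windows. A match is a run of letters and not a measured binding site.

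The second question was whether the layer distribution differed between the regions, which was tested as the layer difference of CA2 minus that of CA1. Of the 25 members 2 passed, Tomm34 and Timm21, 1 in each direction. Of all genes 11.6% passed, 4.81% higher and 6.81% lower, and of the genes in the members' middle range of levels 22.7% passed, 11.2% higher and 11.5% lower. Tomm34 encodes a cytosolic co-chaperone that binds heat shock proteins and preproteins, not a subunit of the TOM complex. It read 8.66, 8.28 and 8.67 in the CA1 dendritic layer, against 9.08, 8.97 and 9.10 in the CA1 cell body layer. The CA2 values of Tomm34 were 8.24, 8.13 and 8.31 in the dendritic layer, against 9.54, 9.55 and 9.57 in the cell body layer. The layers were apart in both regions and further apart in CA2. Tomm34 fell by 0.51 in CA1 (limma adjusted p = 0.000459) and by 1.33 in CA2 (limma adjusted p = 6.48e-07), a fall to 2.51-fold below the CA2 cell body layer. The difference between these was -0.81 (SE 0.11, limma adjusted p = 0.00208). Without the 3 arrays with oocyte transcripts it was -0.92 and did not pass (limma adjusted p = 0.0586).

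Timm21, which links the TIM23 complex to the TOM complex and to respiratory chain assembly, read 8.85, 8.76 and 8.90 in the CA2 dendritic layer, against 7.96, 8.01 and 7.95 in the CA2 cell body layer. In CA1 it read 8.26, 8.48 and 8.09 in the dendritic layer, against 8.21, 8.27 and 8.14 in the cell body layer. The CA2 dendritic arrays stood above all other arrays, and the CA1 groups overlapped. Timm21 rose by 0.86 in CA2 (SE 0.09, limma adjusted p = 2.62e-05), which is 1.82-fold, and by 0.88 without the arrays with oocyte transcripts (limma adjusted p = 0.00801). In CA1 it differed by 0.07 (95% interval -0.13 to 0.27). The difference between the regions was 0.79 (SE 0.13, limma adjusted p = 0.00397). That call was lost without the arrays with oocyte transcripts (0.81, limma adjusted p = 0.0665) and with replicate 1 left out of all groups (0.77, limma adjusted p = 0.0713). Of the markers of other cells, 5 of 7 for interneurons, 8 of 8 for astrocytes, 7 of 7 for microglia, 6 of 6 for endothelium and 5 of 5 for oligodendrocytes were also higher in the CA2 dendritic layer than in its cell body layer. Their part in the Timm21 difference was not tested. The interneuron list averaged 9.70 to 9.96 on the CA2 dendrite arrays, 8.42 to 8.56 on the CA2 cell body, 9.36 to 9.72 on the CA1 dendrite and 8.19 to 8.37 on the CA1 cell body arrays. The oligodendrocyte list averaged 9.16 to 9.27 and 7.63 to 7.77 in CA2, and 8.43 to 8.85 and 6.97 to 7.19 in CA1, in the same order of layers. The endothelial list averaged 8.74 to 8.90 and 6.86 to 6.97 in CA2, and 8.35 to 8.53 and 6.48 to 6.57 in CA1. The astrocyte list averaged 9.86 to 10.01 and 7.96 to 7.97 in CA2, and 9.83 to 9.86 and 7.84 to 7.87 in CA1. The microglia list averaged 9.30 to 9.36 and 7.14 to 7.21 in CA2, and 9.69 to 9.80 and 7.07 to 7.19 in CA1. Between dendrites, 3 of 5 oligodendrocyte, 4 of 7 interneuron and 4 of 6 endothelial markers were higher in CA2, and 6 of 7 microglia markers and 1 interneuron marker were lower, while 1 astrocyte marker was higher and 1 lower.

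The third question was how CA2 differed from CA1 within a layer, with region and run number confounded. In the cell body layer 7 members were higher in CA2, 1 was lower and 17 did not pass, while 21.1% of all genes passed, 10.6% higher and 10.5% lower. Among genes in the members' middle range of levels 43.2% passed, 22.8% higher and 20.4% lower. In the dendritic layer 6 members were higher in CA2, 2 were lower and 17 did not pass, while 30.2% of all genes passed, 11.6% higher and 18.6% lower. In the members' range of levels 48.5% passed, 29.1% higher and 19.3% lower, against 24.0% and 8.0% of the members. After each array was centred on its median, 9 members were higher and 0 lower in the cell body layer, and 10 higher and 1 lower in the dendritic layer. The same centring moved the share of higher genes among all calls to 74.3% in the cell body layer and 70.3% in the dendritic layer. On the deposited values these shares were 50.3% and 38.3%. In a fit that weighted the arrays, 9 members were higher and 6 lower in the cell body layer. A fit of the compared groups alone gave 7 higher and 4 lower there. The share of all genes called in either fit is not given here, so these counts cannot be set beside those of other genes. Without the arrays with oocyte transcripts fewer members passed in both layers, and the CA2 dendritic layer then has 1 array. In that fit the median difference of the members was 0.07 in the cell body layer and 0.075 in the dendritic layer, where Timm21 differed by 0.58.

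**Figure D4:**
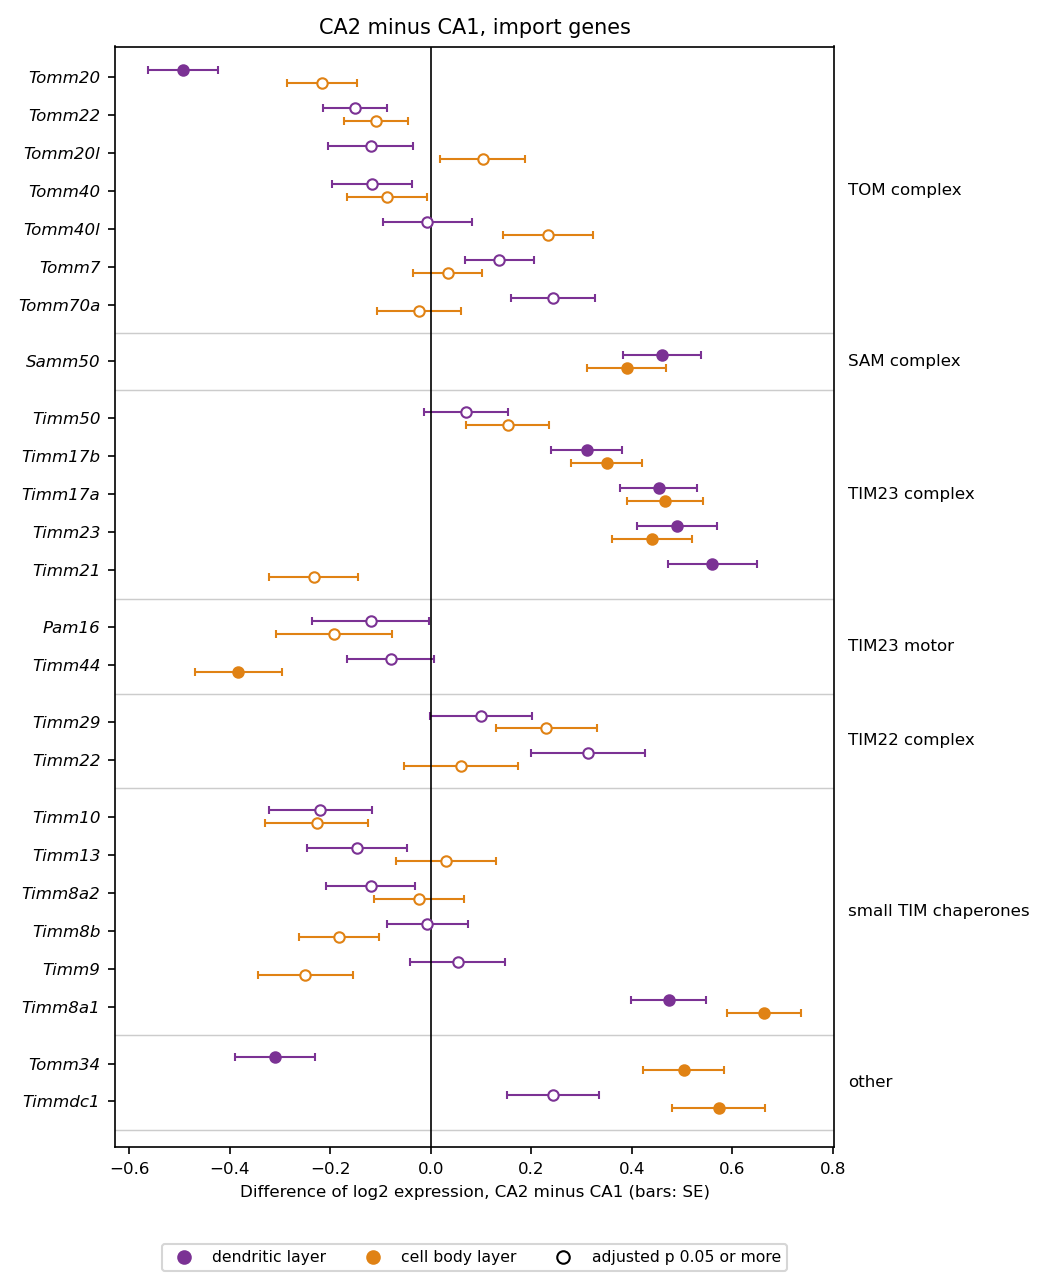
Difference of log2 expression between CA2 and CA1 for the 25 import genes, grouped by complex, in the dendritic layer (purple) and the cell body layer (orange). Bars are standard errors from the limma fit, and open circles did not pass an adjusted p of 0.05. Timm17a, Timm17b, Timm23, Samm50 and Timm8a1 are to the right of 0 with filled circles in both layers.

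The members higher in CA2 in both layers were Samm50, Timm17a, Timm17b, Timm23 and Timm8a1, which is 71.4% of the cell body list and 83.3% of the dendritic list. Over the genes in their range of levels these shares were 61.0% and 47.8%, and over all genes 47.5% and 43.6%. The 3 channel subunits of the TIM23 complex were thus among them, and they differed by 0.35 to 0.47 in the cell body layer and by 0.31 to 0.49 in the dendritic layer. Timm17a averaged 11.04 ± 0.04 in CA2 and 10.57 ± 0.03 in CA1 cell bodies, and 10.56 ± 0.06 in CA2 and 10.10 ± 0.12 in CA1 dendrites (SD, n = 3). Its differences were 0.47 (SE 0.08, limma adjusted p = 0.00162) and 0.45 (SE 0.08, limma adjusted p = 0.00222). Timm17b differed by 0.35 and 0.31 (limma adjusted p = 0.00573 and 0.0103). Its cell body call was lost without replicate 2 (limma adjusted p = 0.0761), and its dendritic call without any of the replicate numbers (limma adjusted p = 0.0504, 0.0899 and 0.057). Timm23 differed by 0.44 and 0.49 (limma adjusted p = 0.00312 and 0.00195), and by 0.36 and 0.67 on the feature of its own chromosome (limma adjusted p = 0.0309 and 0.00141).

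Samm50 read 9.25, 9.40 and 9.61 in CA2 cell bodies, against 8.98, 8.95 and 9.16 in CA1 cell bodies. In the dendritic layer it read 8.92, 9.02 and 9.09 in CA2, against 8.58, 8.53 and 8.54 in CA1. The regions did not overlap, and the differences were 0.39 and 0.46 (limma adjusted p = 0.00546 and 0.00241). The cell body call was lost with replicate 2 left out of all groups (limma adjusted p = 0.0864). The Timm8a1 values given above were apart by 0.66 in cell bodies (SE 0.07, limma adjusted p = 0.000161) and by 0.47 in dendrites (SE 0.07, limma adjusted p = 0.0016), with no overlap. On the feature of its own chromosome, X, the cell body difference was 0.40 (limma adjusted p = 0.013) and the dendritic difference was 0.13 and did not pass (limma adjusted p = 0.302). Without the arrays with oocyte transcripts, Samm50, Timm17a, Timm17b, Timm23 and Timm8a1 all kept their call in cell bodies. In dendrites none of these 5 kept it, with differences of 0.38, 0.41, 0.22, 0.35 and 0.49 in that order.

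Of the 7 TOM members 0 passed in cell bodies in limma, where Tomm20 and Tomm40l had an unadjusted p under 0.05. Tomm40l was higher in CA2 there after median centring (0.33, limma adjusted p = 0.0195) and after quantile normalization (0.30, limma adjusted p = 0.0337). Tomm20 differed by -0.22 in cell bodies (limma adjusted p = 0.0537). It passed as lower in CA2 with no replicate block and with the compared groups alone (limma adjusted p = 0.0467 and 0.0396). Tomm20 was the TOM member that passed in the dendritic layer, where it was lower in CA2 by 0.49 (SE 0.07, limma adjusted p = 0.000954). The Tomm20 call was lost without the arrays with oocyte transcripts (-0.41, limma adjusted p = 0.0755). Tomm70a differed by -0.02 in cell bodies (95% interval -0.21 to 0.16) and by 0.24 in dendrites (limma adjusted p = 0.0522), where it passed after median centring and quantile normalization (0.35 and 0.26, limma adjusted p = 0.0225 and 0.0229). Timm44 of the motor was lower in CA2 cell bodies by 0.38 (limma adjusted p = 0.00998). That call was lost after median centring (-0.28, limma adjusted p = 0.0562), without the arrays with oocyte transcripts (-0.35, limma adjusted p = 0.0799) and without CA1 cell body replicate 1 (-0.35, limma adjusted p = 0.0512).

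Timm21 was higher in CA2 dendrites by 0.56 (SE 0.09, limma adjusted p = 0.00165) and differed by -0.23 in cell bodies (limma adjusted p = 0.0946). Tomm34 was higher in CA2 cell bodies by 0.50 (limma adjusted p = 0.00146) and lower in CA2 dendrites by 0.31 (limma adjusted p = 0.018). The dendritic call of Tomm34 was lost without any of 4 single arrays, among them CA1 dendrite replicate 1 (limma adjusted p = 0.0677), without the arrays with oocyte transcripts (-0.37, limma adjusted p = 0.161) and after median centring (-0.20, limma adjusted p = 0.14). Timmdc1, which bears a Timm symbol but assembles complex I of the respiratory chain, read 8.57, 8.52 and 8.65 in CA2 cell bodies, against 8.04, 7.98 and 8.00 in CA1 cell bodies. It was higher by 0.57 there (SE 0.09, limma adjusted p = 0.00153). In dendrites it read 7.97, 8.13 and 8.08 in CA2, against 7.94, 7.90 and 7.61 in CA1, and 0.24 did not pass (limma adjusted p = 0.0693). The dendritic difference passed after median centring (0.35, limma adjusted p = 0.0183) and with no replicate block (0.24, limma adjusted p = 0.0459). Between layers it fell by 0.52 in CA2 (limma adjusted p = 0.0012) and differed by -0.19 in CA1.

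A list of 23 partner genes of the import route, not chosen by symbol, had 22 measured members. In CA1 15 of them fell and 0 rose in the dendritic layer, and in CA2 16 fell and 1 rose, with medians of -0.39 and -0.33. Of all genes 18.5% and 17.8% fell in these comparisons. Of the genes in the import genes' range of levels 48.1% and 43.2% fell, with medians of -0.20 and -0.16. Mipep, a peptidase that trims imported precursors in the matrix, read 8.05, 7.93 and 7.91 in the CA1 dendritic layer, against 8.97, 9.05 and 9.09 in the CA1 cell body layer. In CA2 Mipep read 8.61, 8.42 and 8.41 in the dendritic layer, against 10.12, 10.03 and 10.11 in the cell body layer. The differences of Mipep were -1.07 in CA1 and -1.61 in CA2 (limma adjusted p = 1.7e-06 and 9.97e-08), and the difference between these was -0.53 (limma adjusted p = 0.0107). It was also higher in CA2 than in CA1, by 1.05 in cell bodies and by 0.52 in dendrites (limma adjusted p = 6.53e-06 and 0.000926).

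Further partners fell in both regions. Chchd4, the receptor of the disulfide relay that folds the small TIM proteins, fell by 0.84 in CA1 and by 0.94 in CA2 (limma adjusted p = 5e-05 and 2.34e-05). Agk, a lipid kinase that is also a TIM22 subunit, fell by 0.78 and 0.99 (limma adjusted p = 1.77e-05 and 3.47e-06). The J protein Dnajc15 fell by 0.86 in CA1 and by 0.57 in CA2 (limma adjusted p = 1.05e-05 and 0.00019). Its CA2 call was lost without the arrays with oocyte transcripts, at a difference of -0.39. Cox18, an insertase of the inner membrane, fell by 0.42 in CA1 and by 0.59 in CA2 (limma adjusted p = 0.0012 and 0.000134).

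Immp1l, a subunit of the inner membrane peptidase, was the partner that rose in CA2. It read 9.99, 9.92 and 10.09 in the CA2 dendritic layer, against 9.76, 9.52 and 9.56 in the CA2 cell body layer. In CA1 it read 9.24, 8.91 and 9.04 in the dendritic layer, against 9.38, 9.49 and 9.37 in the cell body layer, the other way round. Immp1l was higher by 0.39 in CA2 (limma adjusted p = 0.00643), and without the arrays with oocyte transcripts this call was lost (0.34, limma adjusted p = 0.241). The difference between the layer differences was 0.74 (SE 0.13, limma adjusted p = 0.00598). In dendrites 8 of the 22 partners were higher in CA2 than in CA1, 2 were lower (Pmpca and Mtch1) and 12 did not pass. Of all genes 11.6% were higher and 18.6% lower there, and of genes in the import genes' range of levels 29.1% and 19.3%. Immp1l was higher in CA2 dendrites by 0.94 (limma adjusted p = 0.00014). The motor chaperone Hspa9 was higher by 0.45 and the matrix chaperonin Hspd1 by 0.40 (limma adjusted p = 0.00124 and 0.00126). Hspa9 also passed in the difference between regions (0.37, limma adjusted p = 0.0375). Without the arrays with oocyte transcripts, the Immp1l and Mipep differences between CA2 and CA1 dendrites passed (0.86 and 0.64, limma adjusted p = 0.0257 and 0.0322). Those of Hspa9 and Hspd1 did not (limma adjusted p = 0.0594 and 0.0619), nor did the differences between regions in layer distribution of Immp1l, Mipep and Hspa9 (limma adjusted p = 0.114, 0.214 and 0.203). In cell bodies 6 partners were higher in CA2, 1 was lower and 15 did not pass. Of all genes 10.6% were higher and 10.5% lower there, and of genes in the import genes' range of levels 22.8% and 20.4%. Aifm1, which docks Chchd4, was higher in CA2 cell bodies by 0.53 and Agk by 0.33, and Dnajc15 was lower by 0.35 (limma adjusted p = 0.00195, 0.0113 and 0.00955). The Agk call was lost without the arrays with oocyte transcripts (0.35, limma adjusted p = 0.057).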

How the data were processed

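RNA of 12 laser-captured samples was measured on Affymetrix whole-transcriptome arrays. The deposited values are log2 expression made by the authors with RMA, as the submitters' processing notes name it. No source used here says which program did this, or whether the runs were normalized as 1 set. The array medians of the deposited values still differed, from 5.68 to 5.88, and quantile normalization and median centring were run as alternatives. Arrays give no read depth, and their number limits the precision.

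Of 72688 features, 30604 had 1 gene symbol in the platform annotation, and symbols were updated through Entrez identifiers. The feature with the highest mean was kept for each of 30142 genes. limma 3.58.1 in R 4.3.3 (lmFit, eBayes) fitted 4 group means and a term for the replicate number, with adjustment over all genes (Benjamini-Hochberg, called under 0.05, two-sided). The fit was also run on simulated data with independent noise and no effect of mouse or run, which checks the code and not its use on these arrays. The protocols take 4 pieces from each of 3 mice, but no label ties a number to a mouse. Of 18 same-numbered pairs of arrays from different groups, 1 had deviations correlated above 0.1 (range -0.346 to 0.132). Of 36 pairs with other numbers 6 did (range -0.134 to 0.251), so same-numbered arrays were not more alike. P-values then measure the spread between these samples.

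Members, lists, motifs and tests were chosen with earlier results of these data known. Values on every array are given for the 3 members with the smallest p of each comparison and for fixed paralog pairs, except Timm8a2, given by its range, and Timm8a1 in CA2, given by its mean; Timm23, Samm50 and the partners Mipep and Immp1l were added after their values were seen. Promoters are from RefSeq (GRCm38.p6).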

Additional observations from a re-analysis of the deposited data

Results flagged for a closer look

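The layer difference of 2 members was not the same in CA1 and CA2 by the interaction test of limma. For Tomm34 the layer difference of CA2 minus that of CA1 was -0.81 (limma adjusted p = 0.00208). Its dendritic values lay below all its cell body values in both regions. For Timm21 the same difference was 0.79 (limma adjusted p = 0.00397). Its CA2 dendritic values lay above all its CA2 cell body values. Both lost the call without the 3 arrays with oocyte transcripts, at -0.92 and 0.81. Groups of 3 arrays were too small for a search for outlying samples.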

How the results depend on the processing

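The fits gave 16 members called between the layers of CA1, 15 between those of CA2, 2 in the interaction, and 8 between the regions in cell bodies and 8 in dendrites. These counts stayed within 1.5 times under no replicate block (16, 18, 2, 9 and 11 in that order), quantile normalization, median centring, the brighter genes alone, the mean of a gene's features and, chosen after seeing the data, the feature of the gene's own chromosome. Fits of the compared groups alone, which leave the interaction as it is, also stayed within that range. With array weights 15 members passed between the regions in cell bodies, 9 higher and 6 lower in CA2. For the alternative fits the share of all genes called is not given, and the counts alone cannot tell the members from other genes. A test for differences beyond 1.2-fold called 6 between the layers of CA1, 6 in CA2, 1 between the regions in cell bodies and 0 in dendrites by limma's treat, with 6 in dendrites at an unadjusted p under 0.05. Without the 3 arrays with oocyte transcripts 8 were called between the layers of CA2, 0 in the interaction (4 at an unadjusted p under 0.05 in limma) and 1 between the regions in dendrites, where the CA2 dendritic layer then has 1 array. With single arrays or replicate numbers left out, the counts ranged from 11 to 16 between the layers of CA1, from 12 to 18 in CA2, from 1 to 5 in the interaction, from 6 to 10 in cell bodies and from 7 to 9 in dendrites. The interaction count was 1 without replicate 1 and 5 without CA1 dendrite replicate 3. No called member changed sign under any of these alternatives. The pairing of the replicate numbers was not borne out by the correlations between same-numbered arrays. Quantile normalization put the median of all genes at 0.06 between the layers of CA1, against 0.12, and at 0.10 between cell bodies, against 0.02. The share of higher genes among all calls was 30.2% in the interaction after it, against 41.4%, and it was 70.4% in cell bodies and 56.4% in dendrites, against 50.3% and 38.3%. Causes of these shifts were not tested.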
